A study of Mus musculus with 6 samples.

Results

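The enzymes of the tricarboxylic acid cycle are described here by the mRNA of 9 genes: Cs, Idh2, Idh3a, Ogdh, Suclg1, Suclg2, Sucla2, Fh1 and Mdh2. They were found by their symbols in the deposited table of 55487 genes, each at 1 Ensembl gene ID, and all 9 had enough counts to be tested among 15727 genes. The tissue was the left ventricle, which pumps blood into the aorta, of male C57BL/6 mice aged 8 weeks. In the ET group the mice ate a 5% ethanol diet for 10 days and were then gavaged once with ethanol. In the CONT group they ate an isocaloric diet and were gavaged with maltose-dextrin. Hearts were collected 9 h later in both groups. There were 3 libraries per group. Nothing in the labels ties each library to its own mouse, so the p-values measure the spread between these samples alone, and that spread may be technical.

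In GRCm38 (GENCODE vM21) all 9 are protein-coding genes, and no exon base of theirs overlaps an annotated exon of another gene. Cs (ENSMUSG00000005683) is at chr10:128337734-128362479, Mdh2 (ENSMUSG00000019179) at chr5:135778480-135790398, Ogdh (ENSMUSG00000020456) at chr11:6291633-6356642, Sucla2 (ENSMUSG00000022110) at chr14:73525319-73596142, Idh3a (ENSMUSG00000032279) at chr9:54586334-54604661 and Suclg1 (ENSMUSG00000052738) at chr6:73248382-73276911, all on the plus strand. On the minus strand lie Fh1 (ENSMUSG00000026526) at chr1:175600374-175625635, Idh2 (ENSMUSG00000030541) at chr7:80094846-80115392 and Suclg2 (ENSMUSG00000061838) at chr6:95473009-95718800.

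The cycle runs in the mitochondrial matrix. It burns acetyl-CoA from fatty acids, sugars, ketone bodies and acetate, the end product of ethanol oxidation, and hands the electrons to the respiratory chain as NADH and reduced flavin. Heart muscle, which beats without rest, is rich in mitochondria and carries high levels of these enzymes. All 9 genes are nuclear, and their proteins are imported into the mitochondrion.

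No gene of the cycle passed the test of ET against CONT. Of the 9, 8 had a log2 fold change below 0 when counts were scaled by TMM, a scaling by the bulk of genes, against 48.1% of all genes tested. On TPM (transcript abundance, a level per length) only 3 of 9 did, but there the values of all genes were shifted upward too. The members' median lay below that of all genes on both scales. It was -0.079 against 0.014 with TMM, and 0.023 against 0.15 on log2(TPM + 1). For most of the 9 the libraries of a group spread more widely than the group means differed. The groups were without overlap and lower in ET for Fh1 in TPM (3.27% of all genes tested) and for Suclg1 in CPM (8.36%). ET replicate 1 held the lowest CPM (TMM-scaled counts relative to the library total) of all 9 genes, and without that library 6 of the 9 values were above 0. Once the group was accounted for, all 9 genes were higher in ET replicates 2 and 3 and CONT replicate 3 than in the other 3 libraries. This was so most of all for Ogdh, Suclg2 and Cs, although here too no gene passed the test. The pattern crossed the groups in 5 genes (Ogdh, Cs, Suclg2, Sucla2 and Idh3a). In the other 4 (Fh1, Idh2, Mdh2 and Suclg1) the CPM of CONT replicate 3 lay between those of the other CONT libraries. For these 4 the difference rests on ET replicate 1.

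The libraries held 28838386 to 37762233 expected counts, of which the 9 genes took 0.369%, 0.592% and 0.662% in ET replicates 1 to 3, against 0.484%, 0.556% and 0.640% in CONT replicates 1 to 3. Effective gene lengths, which follow from dividing expected counts by FPKM, placed ET replicates 2 and 3 with CONT replicate 3 (set 2) and ET replicate 1 with CONT replicates 1 and 2 (set 1). The effective lengths of 1619 of 5606 well-covered genes (28.9%) were without overlap between the sets, and those of 670 (12%) between ET and CONT. The sets are the division of the 6 libraries into 3 and 3 for which most genes separated, and the labels do not name them. Markers of heart muscle cells were present in all libraries. Their summed level (10 genes, all tested) was 33797, 57536 and 52215 CPM in ET replicates 1 to 3, against 54282, 60698 and 62604 CPM in CONT replicates 1 to 3. Summed fibroblast markers (8 genes) were at 1996 CPM in ET replicate 1 and at 601 to 781 CPM in the other 5 libraries, and summed atrial markers (4 of 5 tested) were at 8818 CPM in ET replicate 1, 1433 CPM in CONT replicate 3 and 58.7 to 333 CPM in the other 4. No marker of these lists was at 0 in all libraries. In bulk tissue, fewer cells of a type and less RNA per cell cannot be told apart, and the part of tissue makeup in the results on the cycle was not tested.

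At the entry of the cycle stands Cs, citrate synthase, which joins acetyl-CoA to oxaloacetate and is widely used as a measure of mitochondrial content. It had 157, 286 and 305 TPM in ET replicates 1 to 3, against 185, 218 and 306 TPM in CONT replicates 1 to 3. The highest CONT library, replicate 3, stood level with the highest ET library, and the groups overlapped. The log2 fold change of the counts was -0.058 ± 0.35 (ET over CONT, ± SE; quasi-likelihood test of edgeR, Benjamini-Hochberg adjusted p = 0.966 over all genes).

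Isocitrate is oxidised in the matrix by 2 kinds of enzyme. Idh3a encodes the catalytic subunit of the NAD-dependent enzyme of the cycle proper, and Idh2 the NADP-dependent enzyme, which supplies NADPH for antioxidant defence. Idh2 was the most abundant of the 9 genes per length, with 795, 1051 and 1262 TPM in ET replicates 1 to 3, against 920, 1094 and 1035 TPM in CONT replicates 1 to 3. The ET libraries held both the lowest and the highest value, on either side of the CONT range. Idh3a had 112, 166 and 165 TPM in ET replicates 1 to 3, against 115, 137 and 187 TPM in CONT replicates 1 to 3. Its log2 fold change in counts was -0.20 ± 0.26 (edgeR, adjusted p = 0.812) and that of Idh2 was -0.037 ± 0.34 (edgeR, adjusted p = 0.980).

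Ogdh encodes the first enzyme of the 2-oxoglutarate dehydrogenase complex, a calcium-sensitive step of the cycle. It spread widely: 169, 378 and 444 TPM in ET replicates 1 to 3, against 234, 257 and 428 TPM in CONT replicates 1 to 3. The highest library exceeded the lowest by 2.62-fold, and the group means of 330 ± 143 TPM in ET and 306 ± 106 TPM in CONT (SD, n = 3 each) lay far closer together than the libraries within each group. In counts the log2 fold change was -0.0075 ± 0.43 (edgeR, adjusted p = 0.999).

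Promoter windows of 250 bases before to 50 bases after an annotated start (RefSeq, GRCm38.p6) were found for 8 of the 9 genes, 13 windows in all, of which 6 belonged to Ogdh; Idh3a had no entry. Both strands were searched for AAGGTCA, the half-site of estrogen-related receptors, for GCATGCGC, a part of the NRF1 site, for CCGGAAG, the core of ETS factors such as GABP, and for GGGCGG, the GC box. AAGGTCA and GCATGCGC, motifs of factors known for mitochondrial genes, matched in Ogdh and in no other member. They were in 1 and 2 of the 13 windows, while 4.72% and 2.71% of all 32817 windows held them. CCGGAAG matched in 0 of the 13 windows (8.86% of all windows). GGGCGG matched in 10 of the 13 (35.6% of all windows), some of them overlapping windows of Ogdh. By gene, GGGCGG matched in 7 of the 8, with Suclg1 the exception. These are matches of letters, not measured sites, and a gene with 6 windows has more chances of a match. The 2 windows below are shown because they carry those 2 matches; capitals mark TGACCTT, the reverse complement of AAGGTCA, starting 5 bases before the annotated start, and GCGCATGC, the reverse complement of GCATGCGC, starting 15 bases before it. A further Ogdh window overlaps the second and holds the same match.
Ogdh window 1, chr11:6291920-6292219, plus strand: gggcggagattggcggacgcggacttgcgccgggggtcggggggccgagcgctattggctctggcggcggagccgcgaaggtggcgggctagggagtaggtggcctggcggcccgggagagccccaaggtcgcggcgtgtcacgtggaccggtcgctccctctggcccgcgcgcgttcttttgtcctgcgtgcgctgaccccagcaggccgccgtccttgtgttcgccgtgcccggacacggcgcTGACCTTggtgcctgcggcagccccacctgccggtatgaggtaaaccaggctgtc
Ogdh window 2, chr11:6292308-6292607, plus strand: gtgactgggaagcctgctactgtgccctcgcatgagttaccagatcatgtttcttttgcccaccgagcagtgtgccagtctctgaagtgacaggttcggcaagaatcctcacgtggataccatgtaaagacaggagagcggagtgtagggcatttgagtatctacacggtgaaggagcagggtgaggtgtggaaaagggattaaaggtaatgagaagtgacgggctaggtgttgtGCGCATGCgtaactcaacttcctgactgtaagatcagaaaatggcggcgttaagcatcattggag

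Succinyl-CoA ligase, the step of the cycle that makes a nucleoside triphosphate directly, pairs the shared alpha subunit of Suclg1 with a beta subunit of either Sucla2, which forms ATP, or Suclg2, which forms GTP. Suclg1 had 188, 254 and 254 TPM in ET replicates 1 to 3, against 230, 253 and 270 TPM in CONT replicates 1 to 3. Sucla2 had 114, 241 and 229 TPM in ET replicates 1 to 3, against 142, 170 and 228 TPM in CONT replicates 1 to 3. Suclg2, the least abundant of the 9 per length, had 23.3, 49.0 and 61.7 TPM in ET replicates 1 to 3, against 29.3, 33.9 and 44.4 TPM in CONT replicates 1 to 3. In all 3 genes ET replicate 1 was lowest and the groups overlapped on this scale. In CPM, by contrast, Suclg1 did not overlap: 198, 290 and 307 CPM in ET replicates 1 to 3, against 313, 366 and 317 CPM in CONT replicates 1 to 3. It was the only member without overlap in CPM and lower in ET, as were 8.36% of all genes tested, while 0 members and 6.89% of all genes were without overlap and higher in ET. Its log2 fold change of -0.33 ± 0.22 did not pass (edgeR, adjusted p = 0.649). Sucla2 had a log2 fold change of -0.079 ± 0.34 (edgeR, adjusted p = 0.952). Suclg2 was the only member with a value above 0, at 0.22 ± 0.41 (edgeR, adjusted p = 0.870), and its value was -0.20 without ET replicate 3.

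Fh1, mitochondrial and cytosolic fumarase, hydrates fumarate to malate, and Mdh2, mitochondrial malate dehydrogenase, closes the cycle and takes part in the malate-aspartate shuttle. Fh1 was the steadiest member in ET, with 170, 165 and 161 TPM in ET replicates 1 to 3, against 201, 211 and 183 TPM in CONT replicates 1 to 3. On this scale the groups did not overlap, as in 3.27% of all genes tested that were lower in ET, and Fh1 was the only member of which this held. On the log2(TPM + 1) scale the difference was -0.26 and did not pass (limma-trend, adjusted p = 0.510). In CPM the groups overlapped, with 164, 248 and 286 CPM in ET replicates 1 to 3, against 265, 297 and 281 CPM in CONT replicates 1 to 3, and the log2 fold change of the counts was -0.27 ± 0.23 (edgeR, adjusted p = 0.707). TPM divides by the effective length, and that of Fh1 moved with the library set, with 1609, 1705 and 1603 bases in ET replicates 2 and 3 and CONT replicate 3, against 1165, 1209 and 1241 bases in ET replicate 1 and CONT replicates 1 and 2. Mdh2 had 598, 759 and 731 TPM in ET replicates 1 to 3, against 666, 762 and 830 TPM in CONT replicates 1 to 3, and a log2 fold change in counts of -0.31 ± 0.22 (edgeR, adjusted p = 0.669).

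**Figure D1:**
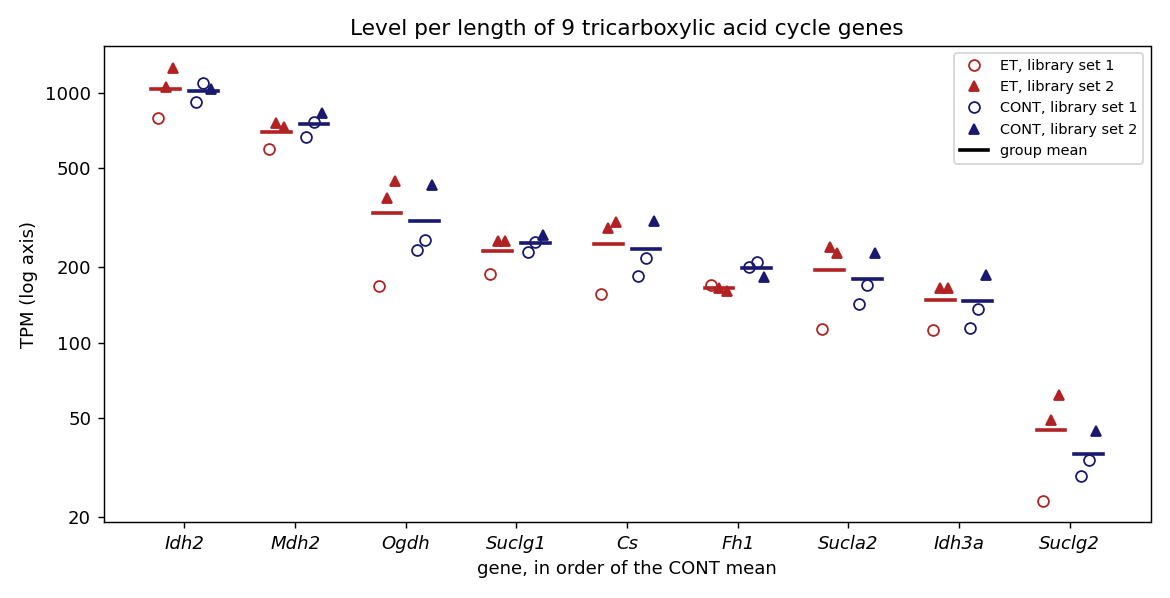
TPM (log axis) of the 9 genes in each library, with ET in red at the left and CONT in dark blue at the right of each gene, library set 1 as open circles, set 2 as filled triangles and group means as bars. The open red circle, ET replicate 1, is lowest in 8 of the 9 genes, the exception being Fh1, whose ET values of 161 to 170 TPM lie below its CONT values of 183 to 211 TPM.

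Per length, the order in CONT was Idh2 (1016 ± 88.6 TPM), Mdh2 (753 ± 82.3), Ogdh (306 ± 106), Suclg1 (251 ± 20.4), Cs (236 ± 62.4), Fh1 (198 ± 14.3), Sucla2 (180 ± 43.8), Idh3a (146 ± 37.1) and Suclg2 (35.9 ± 7.76; SD, n = 3). Idh2 exceeded Mdh2 in all 6 libraries of both groups, as Mdh2 did Ogdh, Sucla2 did Idh3a and Idh3a did Suclg2. The middle of the order was not fixed: Ogdh exceeded Suclg1 in 5 of 6 libraries, Suclg1 exceeded Cs in 3, Cs exceeded Fh1 in 4 and Fh1 exceeded Sucla2 in 3. Idh2 and Suclg2, the ends of the order, differed by a mean of 1026 TPM against 40.3 TPM over the 6 libraries.

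The members shared most of their movement between libraries. Centred on each gene's own average over the 6 libraries, the log2 CPM of the 9 genes had means of -0.77, 0.12 and 0.37 in ET replicates 1 to 3, against -0.098, 0.16 and 0.23 in CONT replicates 1 to 3. ET replicates 1 and 3 thus lay at the ends, with the CONT libraries between them. All 9 genes had their lowest CPM in ET replicate 1, where 24.3% of all genes tested had theirs, and 5 had their highest CPM in ET replicate 3, where 23.9% of all genes tested had theirs. Ogdh (-1.09 in ET replicate 1 and 0.63 in ET replicate 3) and Suclg2 (-0.995 and 0.79) swung most, and Mdh2 (-0.53 and 0.071) and Suclg1 (-0.57 and 0.065) least. The 10 heart muscle markers were also low in ET replicate 1, with means of -0.62, 0.044 and 0.057 in ET replicates 1 to 3, against 0.055, 0.19 and 0.27 in CONT replicates 1 to 3. Taken relative to those markers, the cycle genes were at -0.15, 0.075 and 0.31 in ET replicates 1 to 3, against -0.15, -0.031 and -0.046 in CONT replicates 1 to 3. On that relative scale ET replicate 1 stood level with CONT replicate 1, and ET replicate 3 remained the highest library. The markers are not a neutral measure, because they were themselves lower in ET. Of the 10, 9 had a log2 fold change below 0, against 48.1% of all genes tested. In CPM 3 were without overlap and lower in ET, against 8.36% of all genes. None passed in edgeR (0% of all genes), while DESeq2 called 2 of the 10, against 1.17% of all genes. The relative scale carries that difference between the groups.

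**Figure D2:**
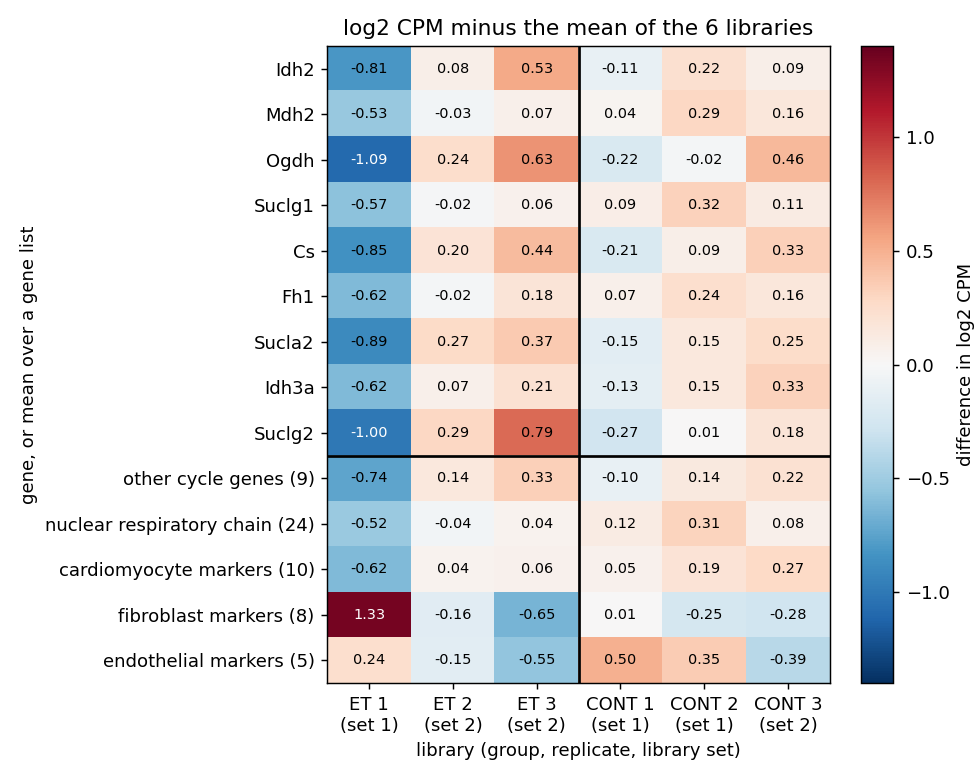
Log2 CPM centred on each gene's mean over the 6 libraries (colour and printed value), for each of the 9 genes above the line and as means over gene lists below it, with the ET libraries left of the CONT libraries. The column of ET replicate 1 is negative in all 9 genes (-0.53 to -1.09) and in the cardiomyocyte list (-0.62), and positive in the fibroblast list (1.33).

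In the comparison of ET with CONT over all 6 libraries, 0 of the 9 genes and 0% of the 15727 genes tested had an adjusted p under 0.05 in edgeR. At an unadjusted p under 0.05 there were 0 of 9 members and 8.65% of all genes (4.46% lower and 4.19% higher in ET), and DESeq2 called 0 members and 1.17% of all genes, while limma-voom called 0 and 0%. The median log2 fold change of the 9 genes was -0.079, beside a median of 0.014 over all genes tested. On log2(TPM + 1) the 2 medians were 0.023 and 0.15, and with library totals alone they were -0.023 and 0.12, so under each of these scalings the members' median lay below that of all genes. Leaving out ET replicate 1 turned the members' median to 0.24, and leaving out ET replicate 3 moved it to -0.37 with all 9 values below 0.

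Within the library sets the picture was split. In set 2 (ET replicates 2 and 3 over CONT replicate 3) the log2 ratio of CPM was near 0 for most members, from -0.19 for Idh3a to 0.38 for Suclg2, with 6 of 9 below 0. In set 1 (ET replicate 1 over CONT replicates 1 and 2) all 9 were below 0, from -0.64 for Idh3a to -0.97 for Ogdh. Each set ratio rests on 1 library of a group, and that of set 1 on ET replicate 1, the library of the lowest heart muscle markers and the highest fibroblast and atrial markers. Both ratios were below 0 in 6 of the 9 members and in 27.0% of all genes. With the library set added to the edgeR model, all 9 log2 fold changes were below 0, against 50.3% of all genes. They ran from -0.24 ± 0.33 for Suclg2 to -0.49 ± 0.29 for Ogdh, and 0 members passed (lowest adjusted p = 0.513, Idh3a), as did 0% of all genes. At an unadjusted p under 0.05 in that fit there were 0 members and 10.0% of all genes.

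**Figure D3:**
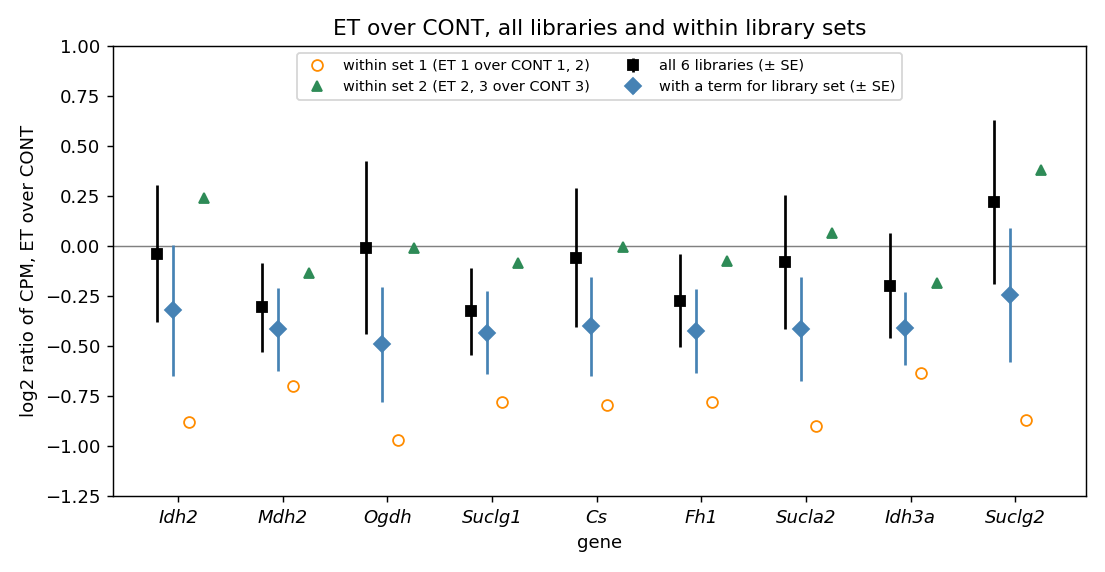
Log2 ratio of CPM, ET over CONT, of each gene: from all 6 libraries (black squares ± SE), with a term for library set (blue diamonds ± SE), within set 1 (open orange circles) and within set 2 (green triangles). The circles, which rest on ET replicate 1, lie between -0.64 and -0.97, while the triangles lie between -0.19 and 0.38.

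The difference between the library sets was itself large in the cycle genes. With the group held in the model, all 9 were higher in set 2 than in set 1, against 46.7% of all genes. The log2 ratio of set 2 over set 1 was 1.06 ± 0.29 for Ogdh, 0.93 ± 0.34 for Suclg2, 0.78 ± 0.25 for Cs, 0.72 ± 0.26 for Sucla2, 0.58 ± 0.33 for Idh2, 0.54 ± 0.18 for Idh3a, 0.35 ± 0.21 for Fh1, 0.26 ± 0.21 for Mdh2 and 0.25 ± 0.21 for Suclg1. None passed (edgeR, lowest adjusted p = 0.154, Ogdh), nor did any gene tested (0%). Within ET, the set 2 libraries had a higher CPM than ET replicate 1 in all 9 genes. Within CONT, the set 2 library exceeded both set 1 libraries in CPM in 5 genes (Ogdh, Cs, Suclg2, Sucla2 and Idh3a). In the other 4 (Fh1, Idh2, Mdh2 and Suclg1) it lay between them, so that for these genes the set ratio above 0 rests on ET replicate 1. At the ends the set ratios followed length. Ogdh, Cs and Suclg2, with the longest effective lengths of 4030, 2852 and 2597 bases, stood at 0.78 or more. Mdh2 and Suclg1, with the shortest of 1211 and 1237 bases, stood at 0.26 or less. Between these the order did not follow length. Idh3a (2096 bases) at 0.54 stood below Sucla2 (1642 bases) at 0.72 and Idh2 (1417 bases) at 0.58. Fh1 (1422 bases) stood at 0.35. This is a description of 9 genes measured in the same 6 libraries. Over all genes with a mean of at least 10 CPM, the median log2 ratio of set 2 over set 1 was -0.028 for 1925 genes under 1500 bases, 0.12 for 2012 genes of 1500 to 2500, 0.12 for 1989 genes of 2500 to 4000 and 0.089 for 1733 genes over 4000. The length bins were set after the data were seen.

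**Figure D4:**
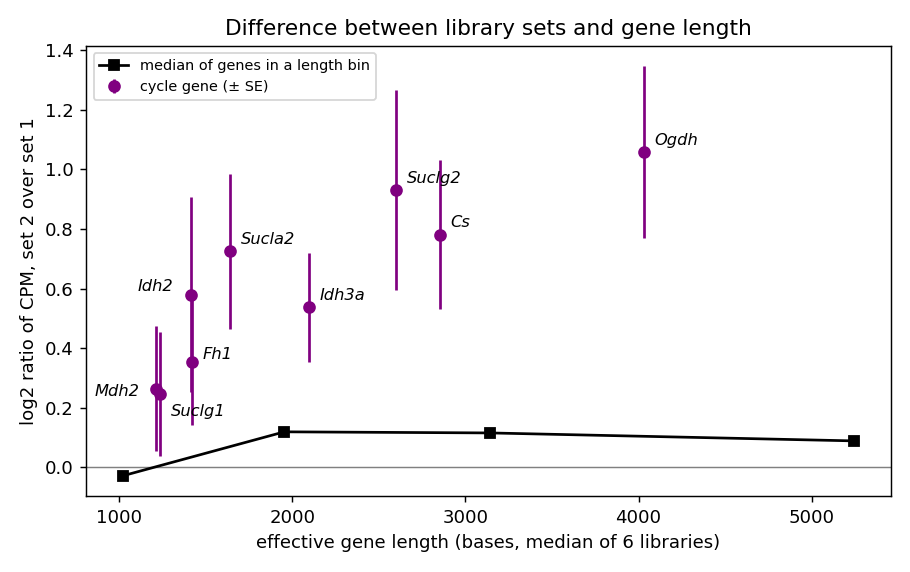
Log2 ratio of CPM of library set 2 over set 1 from the model with group and set (points ± SE, the 9 genes) against effective gene length in bases, with the medians of all genes in 4 length bins as black squares. All 9 genes lie above the medians, and Ogdh, the longest, has the highest ratio (1.06).

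Effective lengths were without overlap between the sets in 8 of the 9 genes, longer in set 2 in 3 (Fh1, Idh2 and Suclg2) and shorter in 5 (Sucla2, Suclg1, Mdh2, Idh3a and Ogdh). The same held for 28.9% of the 5606 well-covered genes. The sets were chosen as the split that separates most genes by effective length, so this count is no independent result about the members. Beside Fh1, given above, the change was largest in Idh2, at 1526, 1554 and 1510 bases in ET replicates 2 and 3 and CONT replicate 3, against 1224, 1310 and 1324 bases in ET replicate 1 and CONT replicates 1 and 2. Sucla2 was assigned 1573 to 1597 bases in set 2 and 1687 to 1709 in set 1, Suclg1 1158 to 1222 and 1252 to 1277, and Idh3a 2007 to 2091 and 2101 to 2189. Mdh2 had 1190 to 1207 bases in set 2 and 1215 to 1226 in set 1, and Suclg2 2620 to 2658 and 2562 to 2573. Ogdh, at 4015 to 4023 bases in set 2 and 4037 to 4044 in set 1, moved little and Cs, at 2852 in all libraries, did not, although their counts differed between the sets by more than those of Fh1. The annotation lists 5 transcripts for Fh1, of 539 to 2636 bases, and 7 for Idh2, of 392 to 1790 bases, and the deposited gene values do not say which of them carried the reads.

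Ratios of genes within a library need no scaling between libraries, but in TPM they carry the effective lengths, from which the library sets were read. 5 were compared, each by an exact two-sided permutation test over the 6 libraries, which with 3 against 3 cannot go below p = 0.1. Sucla2 over Suclg2, the ATP-forming over the GTP-forming subunit, was 4.88, 4.91 and 3.71 in ET replicates 1 to 3, against 4.86, 5.02 and 5.13 in CONT replicates 1 to 3. It hardly varied in 5 libraries and was lowest in ET replicate 3 (difference in mean log2 ratio -0.16, exact p = 0.3, adjusted 0.833 over the 5 ratios). That library also had the highest summed hepatocyte markers (3 of 5 tested, 56.9 CPM, against 0.192 to 4.08 CPM in the other 5) and neutrophil markers (2 of 5 tested, 37.3 CPM, against 0.657 to 5.41 CPM in the other 5), and their part in the ratio was not tested. Both beta subunits together over Suclg1 were 0.728, 1.14 and 1.14 in ET replicates 1 to 3, against 0.747, 0.809 and 1.01 in CONT replicates 1 to 3, higher in the set 2 libraries of either group than in the set 1 libraries (difference 0.21, exact p = 0.4, adjusted 0.833). Idh3a over Idh2 (difference 0.017, exact p = 1.0, adjusted 1.0), Ogdh over Dlst, its partner in the same complex (0.12, exact p = 0.7, adjusted 0.875), and Mdh2 over its cytosolic counterpart Mdh1 (-0.18, exact p = 0.5, adjusted 0.833) overlapped between the groups as well. Mdh2 over Mdh1 was below 1 in the 3 set 2 libraries (0.855, 0.953 and 0.902) and above 1 in the 3 set 1 libraries (1.26, 1.30 and 1.28). In CPM, which does not divide by length, the same ratio was below 1 in all 6 libraries, at 0.961, 0.812 and 0.896 in ET replicates 1 to 3, against 0.947, 0.933 and 0.846 in CONT replicates 1 to 3, and the difference between the groups was -0.033 (exact p = 0.7).

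**Figure D5:**
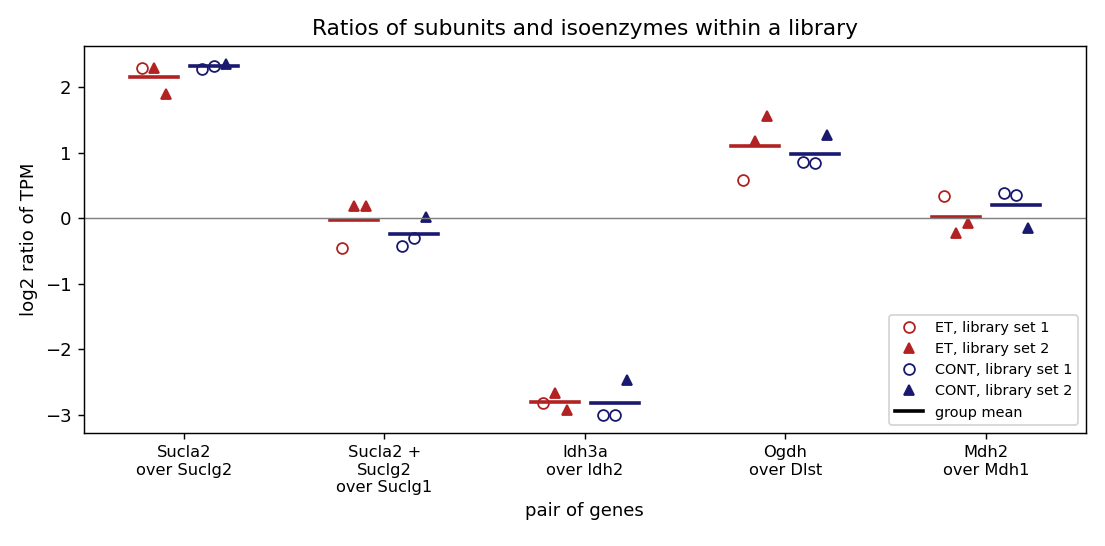
Log2 ratio of TPM of 5 gene pairs in each library, with ET in red at the left and CONT in dark blue at the right, library set 1 as open circles, set 2 as filled triangles and group means as bars. Sucla2 over Suclg2 stays near its CONT values except in ET replicate 3 (a ratio of 3.71), while Mdh2 over Mdh1 in TPM separates by library set (in CPM it is below 1 in all 6 libraries).

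A list of 9 other genes of the cycle, among them further subunits of the dehydrogenase complexes and of succinate dehydrogenase, was tested whole, and 0 passed. Of these 6 were below 0 (48.1% of all genes tested) and 3 above, with a median log2 fold change of -0.18. In CPM 0 were without overlap, against 8.36% of all genes lower and 6.89% higher in ET. Sdhb, the iron-sulphur subunit of succinate dehydrogenase, had the lowest p of this list, with 394, 522 and 569 CPM in ET replicates 1 to 3, against 642, 720 and 556 CPM in CONT replicates 1 to 3 (-0.37 ± 0.22; edgeR, adjusted p = 0.624). All 9 were higher in set 2 than in set 1 (46.7% of all genes), with a median log2 ratio of 0.54. Sdhb had the smallest ratio, at 0.088.

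The nuclear respiratory chain list (24 genes) differed in its mean profile, though not in each of its genes. Its mean centred log2 CPM was -0.52, -0.035 and 0.045 in ET replicates 1 to 3, against 0.12, 0.31 and 0.076 in CONT replicates 1 to 3. Of its genes 23 were below 0 (48.1% of all genes tested), 13 were without overlap and lower in ET (8.36% of all genes), and 0 passed, with a median of -0.37. Relative to this list the cycle genes were at -0.26, 0.15 and 0.32 in ET replicates 1 to 3, against -0.22, -0.15 and 0.15 in CONT replicates 1 to 3, so their ratio to the respiratory chain followed the library sets. Genes that feed the cycle with pyruvate and amino acids (14 of 15 matched and tested) had 9 values above 0 and 5 below, a median of 0.12 and 0 passing. Pcx, pyruvate carboxylase, which refills oxaloacetate, had the lowest p, at 18.8, 27.6 and 40.4 CPM in ET replicates 1 to 3, against 14.6, 15.5 and 26.8 CPM in CONT replicates 1 to 3 (0.61 ± 0.34; edgeR, adjusted p = 0.610).

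The 5 genes whose log2 CPM profile lay nearest to the mean of the 9 members, among 7650 genes with a mean of at least 10 CPM, were Uqcrc2, a core subunit of complex III (mean absolute difference of 0.017 in log2 over the 6 libraries), Coq9, of coenzyme Q synthesis (0.023), Atp5a1, the alpha subunit of ATP synthase (0.035), Prdx3, a mitochondrial peroxiredoxin (0.036), and Sgca, a sarcoglycan of the muscle membrane (0.042). The members themselves lay 0.058 (Sucla2) to 0.21 (Ogdh) from their own mean. Uqcrc2 and Atp5a1 are also genes of the nuclear respiratory chain list, whose mean profile differed from that of the members.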

How the data were processed

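Bulk RNA of left ventricles was sequenced in 6 libraries (NuGEN Universal mRNA Plus kit, 1000 ng of total RNA, paired reads of 75 bases), per the labels' protocols. STAR 2.7.0f, RSEM 1.2.31 and the mm10 build are named in the submitters' processing notes; for the annotation release and the strand setting the sources used here give nothing. The authors deposited expected counts per gene, not normalized, and TPM and FPKM per library, per the file headers. Of nonzero expected counts 65.7% to 67.3% were whole within 0.005. Those of 6 of the 9 members were whole in all libraries, while those of Cs and Suclg2 in all 6 libraries and of Sucla2 in 1 were not, as when reads are split between similar genes, so these levels are less certain.

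Expected counts were rounded, filtered by filterByExpr (minimum count 10, total 15), scaled by TMM (factors 0.92 to 1.19) and compared by the robust quasi-likelihood test of edgeR (two-sided, Benjamini-Hochberg adjusted, threshold 0.05, no covariate); the test was tried on simulated counts. The SE is the log2 fold change divided by the square root of F. Effective length was expected count over FPKM, scaled by the library total. Library sets used genes with at least 5 FPKM and 200 counts in every library. Alternatives changed scaling, filter, tool (limma-voom, DESeq2, or limma-trend for a mean TPM of at least 0.5, with 1 or 0.1 added to the TPM before taking log2), mitochondrially encoded genes, a set term and the libraries included. Replicate numbers follow the order of deposit. The members, lists and rules were chosen with earlier results of these data known. All members are named, as may be the other cycle and cytosolic genes; of other lists at most 2 genes of lowest p are, and the 5 nearest profiles. The values of 1 gene of the cycle list are not reported here. Of 55487 gene IDs 55394 were found in GENCODE vM21. The software was edgeR 4.0.16, DESeq2 1.42.0 and limma 3.58.1 in R 4.3.3, and scipy 1.17.1, pandas 2.3.3 and matplotlib 3.10.9 in Python 3.11.15. The lowest count of a member in any library was 1854 (Suclg2 in ET replicate 1), so counting error is far below the spread between libraries.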

Additional observations from a re-analysis of the deposited data

How the results depend on the processing

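Over the 18 alternatives 0 members passed, with adjusted p from 0.084 to 1.0. The number of genes called was 0 in edgeR and limma-voom with all libraries, 184 in DESeq2, 2 with log2(TPM + 0.1), 0 without any single library, and 828 without CONT replicate 3 and ET replicate 1 together, where group and library set cannot be told apart. Fh1, Mdh2 and Suclg1 stayed below 0 in all 18 alternatives, but without ET replicate 1 they were at -0.059, -0.13 and -0.14; leaving out each library in turn gave -0.45 to -0.059, -0.43 to -0.13 and -0.45 to -0.14. Other members changed sign. Ogdh was at 0.0091 with RLE factors and in DESeq2, 0.027 with library totals and 0.014 without a filter; Idh2 was at 0.018 with library totals. On log2(TPM + 1) Cs was at 0.048, Idh2 at 0.0058, Idh3a at 0.023, Ogdh at 0.047 and Sucla2 at 0.060, and on log2(TPM + 0.1) the same genes were at 0.048, 0.0058, 0.023, 0.047 and 0.060. Suclg2 was at -0.24 with the set term. Without CONT replicate 3 and ET replicate 1, Cs was at 0.40, Idh2 at 0.28, Idh3a at 0.15, Ogdh at 0.59 and Sucla2 at 0.33. Leaving out each library in turn gave -0.32 to 0.25 for Cs, -0.37 to 0.27 for Idh2, -0.36 to 0.029 for Idh3a, -0.38 to 0.36 for Ogdh, -0.29 to 0.24 for Sucla2 and -0.20 to 0.59 for Suclg2, and -0.37 to 0.24 for the median of the 9. The difference for Idh3a over Idh2 was -0.096 in CPM and -0.073 to 0.19 without single libraries, and that for Ogdh over Dlst was 0.029 in CPM and -0.11 to 0.38 without single libraries. The cause of these changes was not tested. No paired analysis was possible because the labels give no pairing of ET with CONT libraries.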

Other observations

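The cytosolic counterparts of the cycle enzymes had 4 values above 0 and 2 below among 6 genes tested, with a median log2 fold change of 0.21 and 0 passing. Mdh1, cytosolic malate dehydrogenase, had 624, 1039 and 1012 CPM in ET replicates 1 to 3, against 939, 1131 and 1137 CPM in CONT replicates 1 to 3 (-0.26 ± 0.25; edgeR, adjusted p = 0.744). Aco1, a cytosolic enzyme that doubles as an iron regulatory protein, had 17.6, 24.4 and 32.3 CPM in ET replicates 1 to 3, against 16.6, 17.3 and 23.5 CPM in CONT replicates 1 to 3 (0.37 ± 0.25; edgeR, adjusted p = 0.649). Idh1, the cytosolic NADP-dependent isocitrate dehydrogenase, had 36.5, 39.9 and 55.8 CPM in ET replicates 1 to 3, against 33.5, 42.1 and 35.3 CPM in CONT replicates 1 to 3 (0.25 ± 0.20; edgeR, adjusted p = 0.689). In each of these genes the groups overlapped.

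Of 10 regulators of mitochondrial gene expression, all tested, 6 were above 0 and 4 below, with a median of 0.088 and 0 passing. Their mean centred log2 CPM, -0.63, 0.22 and 0.49 in ET replicates 1 to 3, against -0.28, -0.088 and 0.29 in CONT replicates 1 to 3, was higher in the 3 set 2 libraries than in the 3 set 1 libraries. Ppara, the nuclear receptor of fatty acid oxidation, had 2.64, 7.97 and 12.6 CPM in ET replicates 1 to 3, against 3.91, 3.33 and 9.26 CPM in CONT replicates 1 to 3 (0.49 ± 0.60; edgeR, adjusted p = 0.798). The 3 libraries of set 2 held its highest values in each group.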
